A study of Mus musculus with 5 samples.

Results

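The genes described are 41 listed genes of lipid synthesis and fatty acid handling, of 31053 genes counted in mouse lung, chosen by symbol and measured in alveolar type 2 (AT2) cells, with endothelial cells of the same lungs beside them. They fall into 7 roles, which are fatty acid synthesis and desaturation (8 genes), phospholipid synthesis (3), cholesterol synthesis (7), transcription factors and sensors (6), uptake and binding (4), activation, storage and efflux (7), and oxidation and thioesterases (6). The study compared lungs with *Itgb1*, the β1 integrin gene, intact or deleted in AT2 cells during repair after lipopolysaccharide (LPS), a bacterial product that injures the alveolus when instilled in the trachea. It has 5 libraries, 1 per group, which are β1fl/fl mice 7 days after LPS, β1AT2-KO mice 7 days after PBS, β1AT2-KO mice 7 days after LPS, and mice of either genotype 21 days after LPS. All mice were adults with floxed *Itgb1* alleles, all drank doxycycline and then had a month without it, and all received 1 intratracheal dose at 3 months of age. The β1AT2-KO mice (labelled Itgb1 iKO) also carried SP-C rtTA and TetO-Cre, in which the surfactant protein C promoter drives Cre in AT2 cells under doxycycline, while their β1fl/fl littermates carried neither transgene, so that Cre and rtTA differ together with *Itgb1*. Cells were viable, CD45- and Ter119- sorted, and the day 21 libraries were enriched for epithelium. β1fl/fl lungs given PBS were not analysed here.

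AT2 cells make pulmonary surfactant, a film of phospholipid and protein that is rich in saturated phosphatidylcholine, and store it in lamellar bodies. Fatty acids for it are made from acetyl-CoA by *Acly*, *Acaca* and *Fasn*, desaturated by *Scd1* and *Scd2* and lengthened by the *Elovl* enzymes, or are taken up from the blood, and *Lpcat1*, *Chpt1* and *Pcyt1a* build them into phosphatidylcholine. *Srebf1* and *Srebf2* encode transcription factors that switch on fatty acid and cholesterol genes when *Scap* escorts them from the endoplasmic reticulum, which *Insig1* holds back.

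Each library pools mice whose cells carry hashtag antibodies, 3 of which were in use in each library, so values are given per mouse as unique molecular identifiers (UMIs, each 1 captured RNA molecule) of a gene per 1000000 UMIs of the gated cells (CPM). A cell entered either gate if it had 700 detected genes or more and if mitochondrial transcripts made up 0.1 to 15% of its UMIs. AT2 cells had *Sftpc* at 5% or more of their UMIs, *Epcam* at 1 UMI or more and no UMI of *Cdh5*, *Pecam1* or *Col1a2*, and endothelial cells had 2 or more UMIs of *Cdh5* and *Pecam1* and none of *Epcam* or *Col1a2*. AT2 cells numbered 119 (β1fl/fl LPS day 7), 26 (β1AT2-KO PBS day 7), 355 (β1AT2-KO LPS day 7), 176 (β1fl/fl LPS day 21) and 1240 (β1AT2-KO LPS day 21), with medians of 7615 to 11251 UMIs per cell. Endothelial cells numbered 879 to 7976, with medians of 1993 to 2490 UMIs. All 10 AT2 markers fixed for the check were detected in every group and made up 279783 to 347378 CPM of the gated cells. *Sftpc*, which the gate requires, is 1 of the 10 and alone held 182704 to 245122 CPM per mouse, so the sum is largely fixed by the gate. Libraries of passing cells shared 15 to 102 barcodes, and AT2 cells of different libraries shared at most 1.

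Several samples stand apart and bear on every comparison of genotypes below. In AT2 cells of the 3 day 7 LPS β1fl/fl mice *Xist* was at 98.8 to 157 CPM while 4 Y-linked genes were at 0, and in the 3 day 7 LPS β1AT2-KO mice the Y-linked genes summed to 81.2 to 111 CPM while *Xist* reached at most 1.19 CPM, so sex and genotype cannot be told apart at day 7. At day 21, β1fl/fl mice 2 and 3 and β1AT2-KO mouse 1 carried mainly *Xist*, and β1AT2-KO mice 2 and 3 mainly Y-linked genes. The hashtag called β1fl/fl mouse 1 at day 21 held both, with *Xist* at 55.4 CPM and the Y-linked genes at 58 CPM, so its cells may come from more than 1 mouse, and day 21 results are also given without it. AT2 cells of day 7 β1fl/fl mouse 2 held 13604 CPM of 3 club cell markers against at most 1667 CPM in the other mice. Those of day 7 β1fl/fl mouse 3 held 352 CPM of 2 cell cycle markers (*Mki67* and *Top2a*) against at most 90.9 CPM in the other mice. The hashtag called PBS mouse 1 also stands apart from PBS mice 2 and 3. In its endothelial cells *Xist* was at 203 CPM against 10.3 and 7.03 CPM, the Y-linked genes at 5.82 CPM against 137 and 150.2 CPM, and *Abca3*, the lamellar body phospholipid transporter, at 41.5 CPM against 141 and 162 CPM. Endothelial *Abca3* was at 42.6 to 47.9 CPM in day 7 LPS β1fl/fl mice and 135 to 150.0 CPM in day 7 LPS β1AT2-KO mice. In AT2 cells of PBS mouse 1 (4 cells, against 2 and 9), *Itgb1* was at 233 CPM against 89.6 and 91.5 CPM. *Abca3* there was at 155 CPM against 1285 and 1346 CPM. Whether this hashtag marks a mouse with the deletion was not tested. The LPS-treated β1AT2-KO mice of day 7 carried Y-linked genes alone, so sex differs in part with treatment. Every mouse of a group shares 1 library, so a library effect and a group cannot be told apart, and the p-values measure the spread between mice within libraries.

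*Itgb1*, the targeted gene, was at 258, 235 and 305 CPM in AT2 cells of day 7 LPS β1fl/fl mice 1, 2 and 3 and at 214, 150.0 and 193 CPM in β1AT2-KO mice. The log2 ratio of β1AT2-KO over β1fl/fl was −0.65 ± 0.16 (SE; adjusted p = 0.0261, edgeR's quasi-likelihood test with Benjamini-Hochberg adjustment over all genes, as for every adjusted p below). At day 21 it was at 356, 319 and 372 CPM against 141, 178 and 146 CPM, a log2 ratio of −1.31 ± 0.13 (adjusted p = 1.89e-07). The groups did not overlap on either day, but β1AT2-KO cells kept *Itgb1* UMIs.

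In AT2 cells the 41 genes together took 12976 CPM, averaged over the 5 libraries, and 5 genes held 67.4% of it. CPM values count molecules at the 5′ end and are not divided by gene length. *Scd1*, which encodes a desaturase that makes monounsaturated fatty acids, averaged 4568 CPM (2087 to 6094 over libraries), 35.2% of the sum. It was followed by *Elovl1* (1327 CPM), an elongase of very long chain fatty acids, *Lpcat1* (1258 CPM), the acyltransferase that remodels surfactant phosphatidylcholine, *Fabp5* (904 CPM), a cytosolic fatty acid carrier, and *Cd36* (684 CPM), a fatty acid receptor at the cell surface. In all, 20 of the 41 genes reached 100 CPM, 8 were under 10 CPM and 3 under 1 CPM. The lowest were *Fabp4*, *Abcg1*, a sterol exporter with 4 UMIs in 1 library and none in the others, and *Elovl6*, with no UMI in any library, which allows up to 0.279 CPM in the deepest of them (3 UMIs; intervals and limits cover counting error only).

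**Figure D1:**
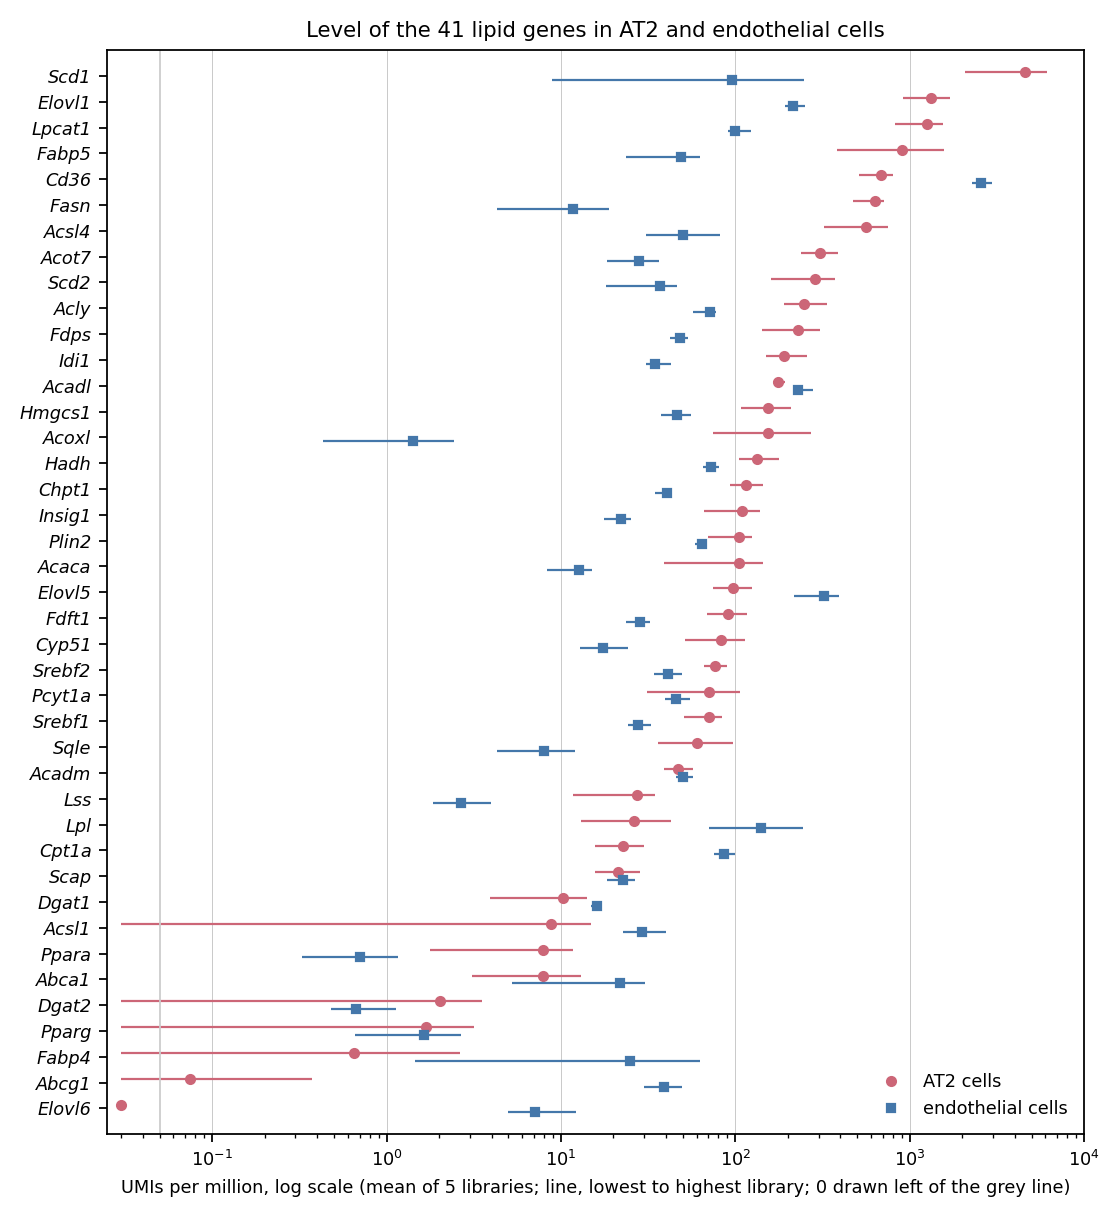
Mean level over the 5 libraries of each of the 41 genes in AT2 cells (red circles) and endothelial cells (blue squares), in CPM on a log scale, with lines from the lowest to the highest library. *Scd1* leads in AT2 cells at 4568 and *Cd36* leads in endothelial cells at 2573, while *Elovl6* has no UMI in AT2 cells.

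Endothelial cells held 4733 CPM of the same genes, of which *Cd36* alone was 54.4%. Their leading genes were *Cd36* at 2573 CPM (2288 to 2950.3 over libraries), *Elovl5* at 324 CPM, a polyunsaturated fatty acid elongase, *Acadl* at 229 CPM, a mitochondrial acyl-CoA dehydrogenase, *Elovl1* at 213 CPM and *Lpl* at 139.8 CPM, the lipase that frees fatty acids from circulating triglyceride. Only 5 genes reached 100 CPM. *Acoxl*, an acyl-CoA oxidase-like gene, averaged 154 CPM in AT2 cells, while endothelial cells held between 0 and 6.1 CPM in every mouse.

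Paired within mice, 28 of the 36 genes tested were higher in AT2 cells (34.3% of all 7695 genes tested were higher) and 7 were lower (39.2% of all genes). Their median log2 ratio was 2.23, against −0.06 over all genes. The largest ratios were of *Acoxl* (7.58 ± 0.22, SE), *Scd1* (6.50 ± 0.29), *Fasn* (6.48 ± 0.20), the fatty acid synthase, *Fabp5* (4.57 ± 0.26) and *Lss* (4.51 ± 0.22), the lanosterol synthase. By role, 6 of 7 genes tested of fatty acid synthesis were higher and *Elovl5* was lower, and the 3 phospholipid, the 7 cholesterol and the 4 tested sensor genes (*Srebf1*, *Srebf2*, *Scap* and *Insig1*) were all higher.

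*Lpl* (−1.69 ± 0.18), *Cpt1a* (−1.19 ± 0.11), which admits fatty acids to the mitochondrion, *Cd36* (−1.17 ± 0.09), *Abca1* (−0.97 ± 0.26), a sterol exporter, *Elovl5* (−0.95 ± 0.09) and *Acsl1* (−0.82 ± 0.17), an acyl-CoA synthetase, were lower in AT2 cells, as was *Abcg1*. *Dgat1*, an enzyme of triglyceride synthesis, did not pass the test at 0.20 ± 0.19 (adjusted p = 0.405). These ratios are on the scale of edgeR's TMM normalization, which sets the bulk of genes level between the cell types, whereas surfactant transcripts take up much of an AT2 cell's CPM. For *Acadl*, *Acadm* and *Scap* the 2 scales differ in direction, with fitted ratios of 0.37 ± 0.07, 0.64 ± 0.11 and 0.64 ± 0.18 although the mean CPM was no higher in AT2 than in endothelial cells.

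RNA set free from AT2 cells reaches the droplets of other cells, and *Sftpc*, which endothelial cells do not make, measures it. Endothelial cells held *Sftpc* at 1.42%, 0.298%, 1.98%, 1.29% and 7.46% of the AT2 level in the 5 libraries, in the order given above. If each member were carried over at the same share, the *Scd1* expected in endothelial cells would be 129%, 70%, 81.5%, 114% and 169% of the *Scd1* measured there, and the *Fasn* expected would be 89.1%, 33%, 72.7%, 134% and 257%. For *Acoxl* it would be 145%, 64.1%, 116%, 528% and 311%. Some of these expected levels exceed the measured ones, so an equal share cannot hold for every gene and library. How much of endothelial *Scd1*, *Fasn* and *Acoxl* is carried RNA was therefore not tested. The expected part was smallest in the PBS library for each of these genes, and least of all for *Fasn*. The fitted ratios of AT2 over endothelial cells take no account of carried RNA. On the same assumption, the carried share was 9.96% to 45.8% for *Fabp5*, 2.64% to 50.6% for *Scd2*, and at most 2.05% for *Cd36*. In the other direction, 6 endothelial markers would carry 8.6 to 29.9 CPM of *Cd36* into AT2 cells, which held 514 to 802 CPM.

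**Figure D2:**
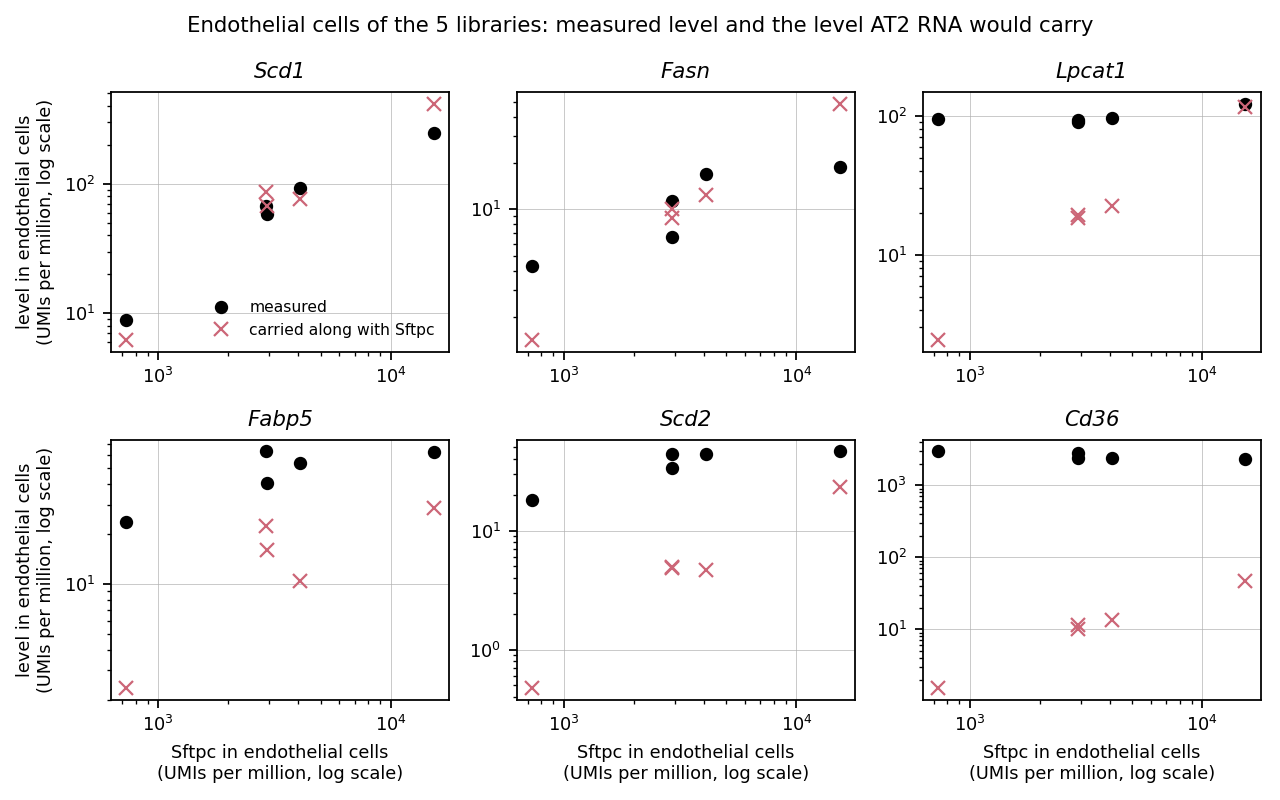
Level of 6 lipid genes in endothelial cells of each library against *Sftpc* in the same cells, both in CPM on log scales. Black points are measured and red crosses are the level that AT2 RNA would carry at the *Sftpc* share. For *Scd1* the 2 lie close and rise together, while measured *Cd36* lies far above the crosses in every library.

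At day 7 after LPS, AT2 cells of β1AT2-KO mice held less of 2 fatty acid handling genes, *Acoxl* and *Fabp5*, and of 4 genes of fatty acid synthesis and desaturation, *Scd1*, *Scd2*, *Elovl1* and *Acaca*, and less of *Plin2*, a coat protein of lipid droplets. Of the 32 genes tested, 7 were lower (1.17% of all 6348 genes tested were lower) and 0 were higher (0.898% of all genes), with 14 at an unadjusted p under 0.05 (13.4% of all genes). The median log2 ratio of the 32 genes was −0.35, against −0.00 over all genes, and 8 were above 0. The other 9 genes had too few UMIs for the filter. Lower *Fabp5* and *Acoxl* at day 7 were already known from these data when the genes were listed. The count of 7 and the adjusted p of these 2 genes are therefore not independent of that choice. DESeq2 called 11.

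*Fabp5* was at 1854, 1321 and 1438 CPM in day 7 β1fl/fl mice 1, 2 and 3 and at 279, 569 and 692 CPM in β1AT2-KO mice. Every β1AT2-KO mouse lay below every β1fl/fl mouse, and the log2 ratio was −1.67 ± 0.22 (adjusted p = 2.30e-05). *Acoxl* was at 281, 204 and 199.9 CPM against 38.6, 76.2 and 63.8 CPM, also without overlap, a log2 ratio of −2.01 ± 0.25 (adjusted p = 1.69e-05). Both calls held in all 15 alternatives. Part of *Fabp5* (21.1% of the 50-base windows of its transcripts) is also found in other genes, mostly *Gm6166*, so reads there could be split between them.

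The synthesis genes fell by smaller amounts. *Scd1* was at 6858, 4211 and 6984 CPM in β1fl/fl mice and at 4114, 3134 and 3567 CPM in β1AT2-KO mice, a log2 ratio of −0.84 ± 0.18 (adjusted p = 0.00665). Its lowest β1fl/fl mouse was close above the highest β1AT2-KO mouse. *Elovl1* was at 1590.1, 1723 and 2323 CPM against 1177, 999 and 1216 CPM, with no overlap, a log2 ratio of −0.83 ± 0.14 (adjusted p = 0.000483) that was called in all 15 alternatives. *Scd2*, the second desaturase, was at 427, 272 and 271 CPM against 211, 217 and 201 CPM, a log2 ratio of −0.80 ± 0.16 (adjusted p = 0.00554). Without β1fl/fl mouse 1, whose *Scd2* was far above the others, this ratio was −0.45 ± 0.17 (adjusted p = 0.301), that of *Scd1* was −0.72 ± 0.19 (adjusted p = 0.0921), and 3 genes were called in all.

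*Acaca*, the acetyl-CoA carboxylase of the first committed step, was at 138, 154 and 109 CPM in β1fl/fl and 74.1, 83.3 and 94.7 CPM in β1AT2-KO mice (log2 ratio −0.75 ± 0.19, adjusted p = 0.0282). *Plin2* was at 108, 129.7 and 119 CPM against 62.3, 70.2 and 63.8 CPM (log2 ratio −0.89 ± 0.24, adjusted p = 0.0426). Neither overlapped between genotypes, yet both calls are fragile, since *Plin2* lost its call when any 1 mouse was left out and *Acaca* kept it in 7 of 15 alternatives. *Acaca* shares 49.1% of its 50-base windows with *Gm5182*. *Fasn* (762, 655 and 857 CPM against 602, 539 and 669 CPM) had a log2 ratio of −0.43 ± 0.14 and *Insig1* (118, 92.6 and 105 CPM against 86, 60.7 and 67.7 CPM) had one of −0.76 ± 0.21, and neither passed the test (adjusted p = 0.109 and 0.0523).

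Of the 7 genes of cholesterol synthesis tested, 0 were called and 4 were above 0, with a median log2 ratio of 0.01, from −0.66 ± 0.20 for *Fdps* (adjusted p = 0.0754) to 0.16 ± 0.21 for *Hmgcs1*. *Fdps* and *Lss* did not overlap between genotypes, and *Fdps* was called in 4 of 15 alternatives. None of the 3 phospholipid genes was called. *Lpcat1* was at 1348, 1229 and 1395 CPM against 1017, 1041 and 1226 CPM, with a log2 ratio of −0.37 ± 0.13 (adjusted p = 0.159). *Srebf1* had a log2 ratio of −0.33 ± 0.22, and of the oxidation genes other than *Acoxl* none was called, from −0.38 ± 0.16 for *Hadh* to 0.43 ± 0.40 for *Cpt1a*. *Cd36* (856, 692 and 833 CPM against 869, 631 and 599 CPM) and *Lpl* (45.3, 6.18 and 23.8 CPM against 2.97, 19 and 29 CPM) overlapped between genotypes, with log2 ratios of −0.31 ± 0.14 and −0.88 ± 0.46.

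**Figure D3:**
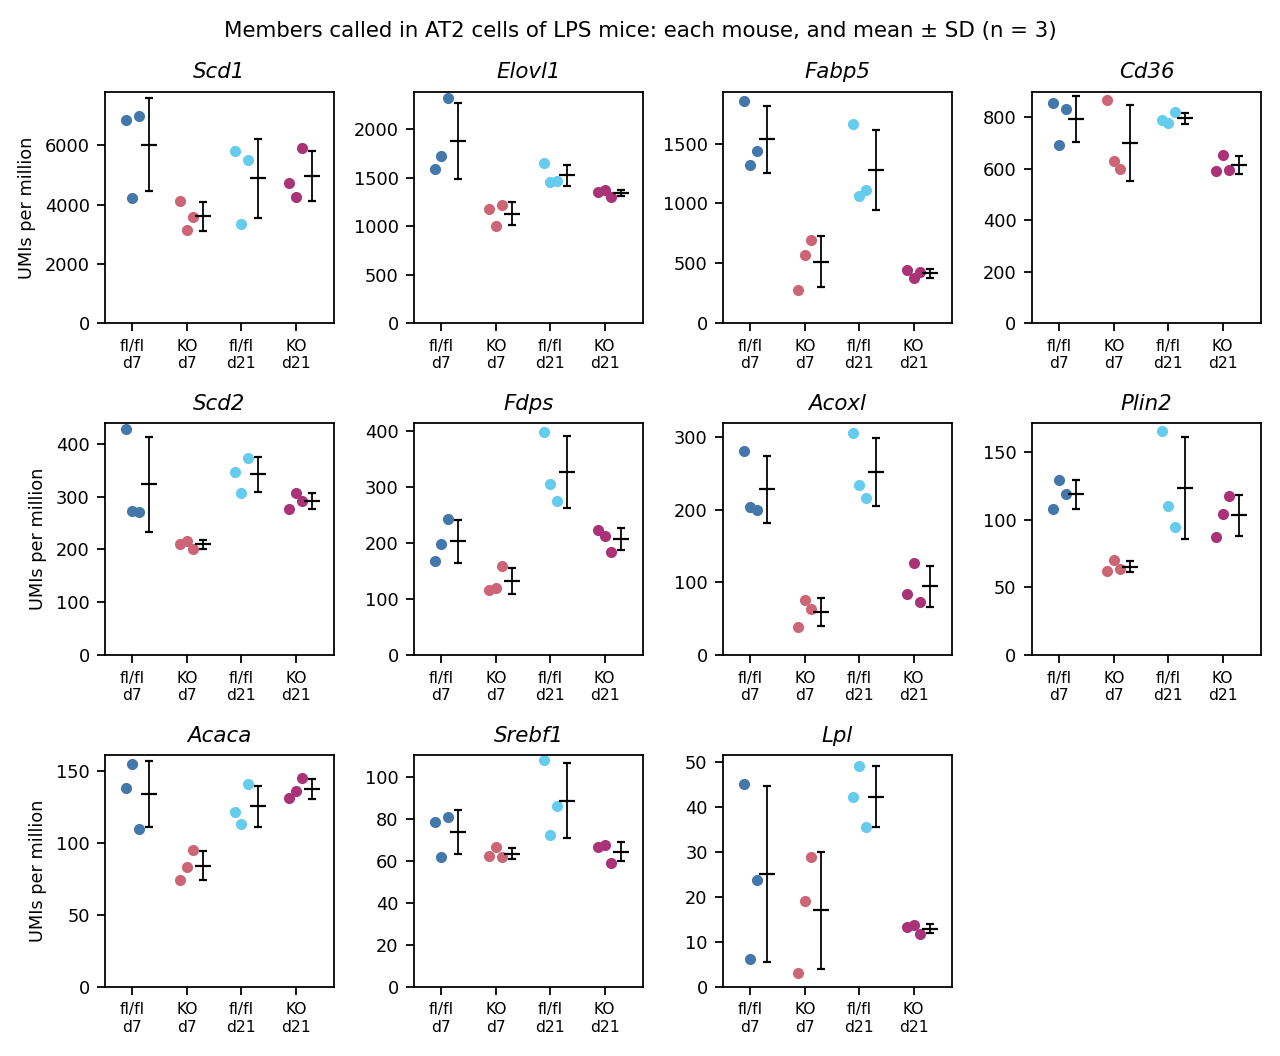
AT2 level of the 11 genes called in a genotype comparison in each LPS-treated mouse, in CPM, with mean ± SD (n = 3) beside the points, for β1fl/fl (fl/fl) and β1AT2-KO (KO) mice at day 7 (d7) and day 21 (d21). *Fabp5* and *Acoxl* are lower in every KO mouse than in any fl/fl mouse of the same day, and *Scd1* and *Acaca* are lower at day 7 while their groups overlap at day 21.

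Other cell types and states in the AT2 gate were measured beside these results. The 9 macrophage markers summed to 0 to 15.8 CPM in every mouse, with *Ptprc*, *Marco*, *Chil3* and *Ear2* at 0 in all groups. Markers of the Krt8+ transitional state (7 genes) summed to 1229 to 1590.0 CPM in day 7 β1fl/fl mice and 1749.6 to 2929 CPM in β1AT2-KO mice, and at day 21 to 884 to 1328 CPM and 1687 to 1987 CPM. Markers of the activated AT2 state (3 genes) summed to 4125 to 9507 CPM and 4873 to 6250.2 CPM at day 7 and to 2726 to 3126 CPM and 4423 to 6184 CPM at day 21, and AT1 cell markers (6 genes) to 1256 to 1604 CPM and 2039 to 2806 CPM at day 7. Fibroblast markers (6 genes, *Col1a2* at 0 by the gate) summed to 38.1 to 59 CPM and 83.1 to 121 CPM at day 7 and to 13.2 to 31.9 CPM and 32.5 to 37.5 CPM at day 21, and the AT2 markers to 316787 to 327743 CPM and 286494 to 295468 CPM at day 21. Ciliated cell markers (4 genes) summed to 23.8 to 55.1 CPM and 67.8 to 114 CPM at day 7. The Krt8+ and fibroblast sums did not overlap between genotypes on either day, the activated and AT2 sums did not at day 21 and the AT1 and ciliated sums did not at day 7. The part of these cell types and states in the lipid differences was not tested. Without day 7 β1fl/fl mouse 2, which held the club cell markers, *Fabp5* had a log2 ratio of −1.73 ± 0.23 and *Acoxl* one of −2.05 ± 0.27, both called.

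At day 21, *Fabp5* and *Acoxl* were again called, and the other genes called were *Lpl*, *Fdps*, *Cd36* and *Srebf1*. The fatty acid synthesis genes were not called, though the test of a difference between days, given below, called none of the members. Of 32 genes tested, 6 were lower in β1AT2-KO AT2 cells (2.66% of all genes tested were lower) and 0 were higher (1.39% of all genes), with 15 at an unadjusted p under 0.05 (17.2% of all genes). The median log2 ratio was −0.29, against −0.02 over all genes, and 3 of the 32 were above 0. Without the hashtag that held markers of both sexes, 4 genes were called. The stricter hashtag call, which left that hashtag no AT2 cell, left *Fabp5* alone called (−1.09 ± 0.22, adjusted p = 0.038). Under it *Acoxl* was at −1.03 ± 0.23 (adjusted p = 0.112), *Fdps* at −0.43 ± 0.21 (adjusted p = 0.584) and *Lpl* at −1.41 ± 0.51 (adjusted p = 0.452).

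*Fabp5* was at 1662, 1061 and 1109.8 CPM in day 21 β1fl/fl mice and at 446, 376 and 427 CPM in β1AT2-KO mice, a log2 ratio of −1.74 ± 0.21 (adjusted p = 4.12e-06). *Acoxl* was at 306, 235 and 216 CPM against 84, 127 and 73.2 CPM, a log2 ratio of −1.52 ± 0.19 (adjusted p = 5.55e-06). Neither overlapped. Without β1fl/fl mouse 1 the ratios were −1.49 ± 0.22 (adjusted p = 0.000132) and −1.35 ± 0.20 (adjusted p = 0.000218). Sex still differed in part with genotype, and its part in these differences was not tested.

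*Lpl* was at 42.2, 49.3 and 35.6 CPM in β1fl/fl and 13.3, 13.7 and 11.8 CPM in β1AT2-KO mice (log2 ratio −1.78 ± 0.33, adjusted p = 0.00177). *Fdps*, the farnesyl diphosphate synthase of the cholesterol path, was at 398, 305 and 275 CPM against 223, 213 and 184 CPM (log2 ratio −0.77 ± 0.14, adjusted p = 0.00209). Neither overlapped, and without β1fl/fl mouse 1 both were still called, at −1.74 ± 0.38 and −0.58 ± 0.15. *Fdps* shares 64.1% of its 50-base windows with other genes, mostly *Gm43738*, so its counts are uncertain. *Cd36* (789, 777 and 819.7 CPM against 593, 654 and 595 CPM) had a log2 ratio of −0.50 ± 0.13 (adjusted p = 0.0238). *Srebf1* (108, 72.5 and 86.2 CPM against 66.8, 67.6 and 59.1 CPM) had one of −0.59 ± 0.16 (adjusted p = 0.0363). Both were apart between genotypes but lost their calls when any 1 mouse was left out, with *Srebf1* at −0.44 ± 0.18 (adjusted p = 0.271) without β1fl/fl mouse 1.

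The fatty acid synthesis genes that were called at day 7 were not called at day 21. *Scd1* was at 5814, 3347 and 5497 CPM against 4722, 4248 and 5904 CPM, overlapping, with a log2 ratio of −0.11 ± 0.17 (adjusted p = 0.819), and *Acaca* at 121, 113 and 141 CPM against 131, 136 and 145 CPM. *Elovl1* was at 1654, 1462 and 1472 CPM against 1358, 1372 and 1308 CPM (log2 ratio −0.31 ± 0.13, adjusted p = 0.204), and *Lpcat1* was at 1715, 1354 and 1445 CPM against 1509, 1491 and 1491 CPM.

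Whether the genotype difference itself changed between days was tested as the ratio at day 21 less that at day 7. None of the 32 genes was called (0.362% of all genes were higher and 0.268% lower), and 3 had an unadjusted p under 0.05, against 10.8% of all genes. They were *Acaca* (0.73 ± 0.23, adjusted p = 0.194), *Scd1* (0.74 ± 0.25, adjusted p = 0.223) and *Elovl1* (0.51 ± 0.19, adjusted p = 0.29), so a change with time was not shown for any of them. DESeq2 and every other alternative also gave 0 except the fit with no filter, which gave 1.

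**Figure D4:**
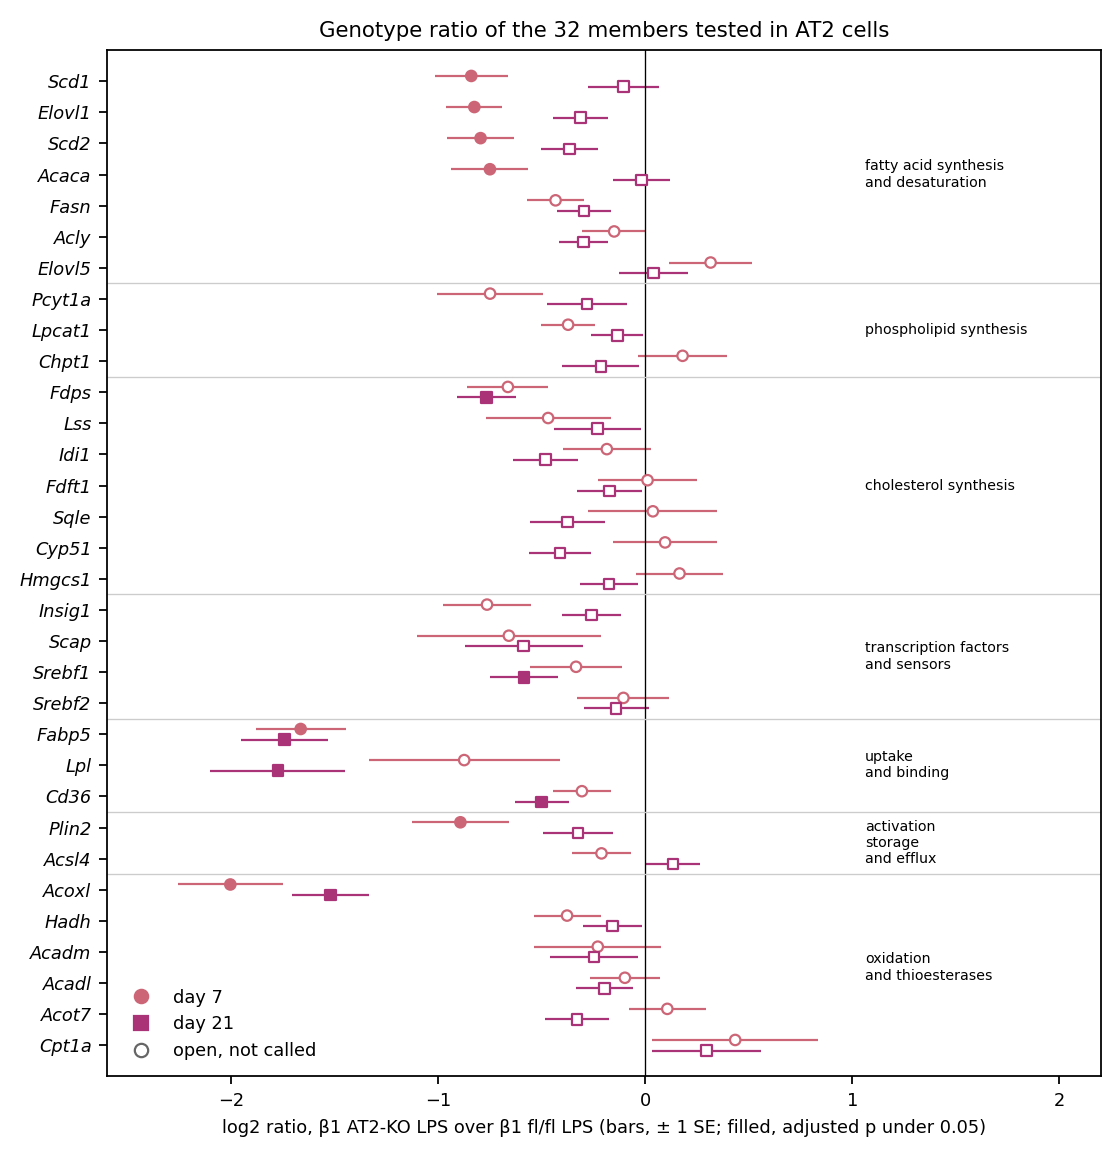
Log2 ratio of β1AT2-KO over β1fl/fl AT2 cells after LPS for the 32 genes tested, grouped by role, at day 7 (circles) and day 21 (squares), with bars of ± 1 SE and filled symbols where the adjusted p was under 0.05. *Acoxl* and *Fabp5* lie between −1.52 and −2.01 on both days, and the filled symbols of fatty acid synthesis are those of day 7.

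The same UMIs of *Fabp5* and *Acoxl* were also described as the share of cells with a UMI, over all gated cells of a library. These cells are pooled over mice, and the intervals cover counting of cells only and not the spread between mice. After each AT2 cell was thinned to 2000 UMIs, *Fabp5* was found in 73.5% of 117 day 7 β1fl/fl cells (exact binomial 95% interval 64.5 to 81.2) and 37.5% of 347 β1AT2-KO cells (32.4 to 42.8), and unthinned in 92.4% and 58.3%. At day 21 the thinned shares were 69.7% of 175 cells (62.3 to 76.4) and 37.9% of 1234 cells (35.2 to 40.7), and the unthinned shares 90.3% and 65.4%. Endothelial cells, thinned alike, held *Fabp5* in 3.41% to 8.92% of cells. *Acoxl* was found in 35% and 12.4% of thinned cells at day 7 and in 42.9% and 16.9% at day 21 (72.3%, 31.5%, 81.2% and 40.7% unthinned), against at most 0.229% of thinned endothelial cells. *Scd1* was found in 94.9% to 96.6% of thinned AT2 cells of the 4 LPS libraries, so nearly every cell held it in either genotype.

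Not every β1AT2-KO cell lacked *Itgb1* UMIs, and the cells were split by this after the data were seen, as a description. In day 7 β1AT2-KO mice, *Fabp5* was at 574 CPM in 224 cells with an *Itgb1* UMI and 428 CPM in 131 cells without, and at day 21 at 369.9 CPM in 839 cells and 417 CPM in 401 cells. *Acoxl* was at 86.9 and 48.7 CPM at day 7 and at 110.0 and 83.7 CPM at day 21. On both sides of the split these levels were below those of β1fl/fl cells with an *Itgb1* UMI (1548 and 1249 CPM of *Fabp5*, 245 and 269 CPM of *Acoxl*). A split by *Lcn2*, an injury response gene, at 0.1% of UMIs gave more *Fabp5* on the *Lcn2* side in each LPS library, at 1672 against 1235 CPM and 1409 against 1088 CPM in β1fl/fl and at 647 against 196 CPM and 452 against 213 CPM in β1AT2-KO cells, for day 7 and day 21. In both *Lcn2* classes *Fabp5* was lower in the β1AT2-KO than in the β1fl/fl library of the same day. Both splits pool all gated cells of a library and were not tested over mice. Whether a cell shows an *Itgb1* UMI also depends on its depth. UMIs were counted over whole genes, so an *Itgb1* UMI does not tell an intact from a recombined transcript. Levels in β1fl/fl cells without an *Itgb1* UMI are not given here.

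The uninjured β1AT2-KO library held 26 AT2 cells, of which its 3 mice gave 4, 2 and 9 tagged cells, so levels of the whole library are given with exact Poisson 95% intervals. *Fabp5* was at 791 CPM (685 to 907) without injury and 526 CPM (499.9 to 554) after LPS at day 7, and *Acoxl* at 93.5 CPM (59.9 to 139) and 74.4 CPM (64.7 to 85.2). *Scd1* went the other way, from 2087 CPM (1914 to 2272) to 3851 CPM (3779.6 to 3924). *Elovl1* was at 919 and 1156 CPM, *Lpcat1* at 818 and 1127 CPM, *Fasn* at 475 and 624 CPM and *Acaca* at 38.9 and 95.6 CPM, also higher after LPS, while *Fdps* was at 308 and 143 CPM and *Plin2* at 125 and 69.8 CPM. The intervals do not cover the spread between mice, and *Fabp5* ranged from 327 to 1218 CPM among the 3 uninjured mice. A test over mice needed a lower minimum of 3 cells, which left 2 uninjured mice, and called 0 of 32 genes (0.102% of all 6844 genes were higher after LPS and 0.205% lower), with 10 at an unadjusted p under 0.05 by edgeR (9.98% of all genes). One of these mice is the hashtag called PBS mouse 1, whose *Itgb1* and *Abca3* stand apart as given above.

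In endothelial cells, where Cre is not driven, none of the 37 genes tested was called between genotypes at day 7 (1.68% of all 11757 genes were higher and 0.774% lower) or at day 21 (0.255% higher and 0.272% lower), with 7 and 10 at an unadjusted p under 0.05 by edgeR (14.6% and 11.5% of all genes). The fit with no filter called 1 gene on each day. *Cd36* was at 2903, 3078 and 2514 CPM in day 7 β1fl/fl and 2669, 2441 and 2086 CPM in β1AT2-KO mice, and at day 21 at 2799, 2219 and 2422 CPM and 2356, 2261 and 2292 CPM. *Elovl5* ranged from 332 to 427 CPM over the LPS-treated mice of day 7 and from 189 to 312 CPM over those of day 21, and *Acadl* from 174 to 241 CPM over both days. *Lpl* was at 177, 177 and 149.8 CPM against 131, 75.8 and 121 CPM at day 7 and at 234, 119.7 and 89.2 CPM against 51.8, 97.2 and 89.5 CPM at day 21. *Scd1* had the largest ratio at day 21, 1.57 ± 0.39 (adjusted p = 0.0731), and *Sftpc* in the same cells rose by 2.28 ± 0.35 (adjusted p = 0.00441).

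Uninjured mice could be compared with LPS-treated mice at full cell numbers in endothelial cells. In β1AT2-KO lungs at day 7, 9 of 37 genes were higher in the LPS than in the PBS library (14.3% of all genes tested were higher) and 6 were lower (11.9%). The hashtag called PBS mouse 1 stands apart from PBS mice 2 and 3 in sex, in *Abca3* and in the *Itgb1* of its AT2 cells. Without it, all 15 kept their calls and 2 more were called. *Abca1* was at 20.6, 21 and 37.8 CPM after LPS and 6.63, 5.14 and 2.34 CPM after PBS, without overlap, a log2 ratio of 2.36 ± 0.32 (adjusted p = 2.63e-05). *Scd2* was at 46.6, 34.2 and 46 CPM against 16.3, 15.4 and 16.6 CPM, a log2 ratio of 1.29 ± 0.14 (adjusted p = 3.36e-06). *Fabp5* was at 50.6, 44.6 and 64.5 CPM against 34.3, 17.8 and 16.2 CPM (1.10 ± 0.22, adjusted p = 0.0011). *Acaca*, *Hmgcs1*, *Acot7* and *Acsl4* rose by 0.46 to 0.75 on the log2 scale. *Scd1* and *Fasn* rose by 3.14 ± 0.36 and 1.68 ± 0.31 while *Sftpc* in the same cells rose by 2.66 ± 0.36 (adjusted p = 2.57e-05). At the *Sftpc* share, carried RNA would be 81.5% of the *Scd1* and 72.7% of the *Fasn* measured in the LPS library, and its part in these rises was not tested.

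Of the 4 uptake and binding genes 3 were lower in the LPS library and *Fabp5* was higher, and of 5 oxidation genes tested 2 were lower and *Acot7* was higher. *Lpl* was at 131, 75.8 and 121 CPM after LPS and 298, 248 and 201 CPM after PBS (−1.29 ± 0.22, adjusted p = 0.000294). *Cd36* was at 2669, 2441 and 2086 CPM against 2860.3, 2853 and 3139 CPM (−0.39 ± 0.11, adjusted p = 0.0109), and *Acadl* at 203, 221 and 241 CPM against 262, 301 and 277 CPM (−0.43 ± 0.09, adjusted p = 0.00163). *Cpt1a* and *Elovl1* fell by 0.42 and 0.39. None of these 5 overlapped between treatments except that the highest *Elovl1* after LPS (237 CPM) equalled the lowest after PBS to 3 digits. *Fabp4*, the fatty acid carrier of microvessels, was also called (−1.13 ± 0.41, adjusted p = 0.0472), but PBS mouse 2 held 130.4 CPM and the other PBS mice 34.6 and 31.1 CPM, against 24.5 to 39.1 CPM after LPS.

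A model with both cell types of each mouse tested whether the genotype difference in AT2 cells differed from that in endothelial cells of the same mice. At day 7 it was lower in AT2 cells for 7 of 39 genes (0.758% of all 11609 genes were lower) and higher for 0 (0.491%), and at day 21 lower for 4 of 36 (1.12% of 8608 genes) and higher for 0 (0.883%). *Fabp5* differed by −1.52 ± 0.21 at day 7 (adjusted p = 5.17e-10) and −2.55 ± 0.27 at day 21 (adjusted p = 5.50e-14), and *Fdps* by −0.84 ± 0.23 (adjusted p = 0.0269) and −1.30 ± 0.27 (adjusted p = 0.000558). *Elovl1* (−0.80 ± 0.21), *Acaca* (−1.16 ± 0.31) and *Insig1* (−1.08 ± 0.30) differed at day 7. *Scd1* and *Fasn* also differed on both days, but carried AT2 RNA may make up much of their endothelial level, and its part was not tested. Endothelial *Fabp5* also holds a carried share, given above, and the part of carried RNA in the *Fabp5* differences was not tested either. *Acoxl*, close to 0 in endothelial cells, gave −1.64 ± 0.68 and −3.46 ± 1.31, not called. At day 7 the count was not firm, with 1 gene called by DESeq2 or without β1AT2-KO mouse 2, and 4 without β1fl/fl mouse 1 or β1AT2-KO mouse 1.

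A further 111 genes of the same pathways were listed, of which 110 were in the files. At day 7 in AT2 cells 75 of them were tested, 2 were higher (0.898% of all genes were) and 5 lower (1.17%). Their median log2 ratio was −0.25, against −0.00 over all genes. At day 21 1 was higher (1.39% of all genes were) and 7 lower (2.66%), with a median of −0.26, against −0.02 over all genes. Of 13 other cholesterol synthesis genes tested at day 7, 1 was lower and 3 were above 0, with a median of −0.40. The higher genes, *Eci1* and *Etfb*, serve mitochondrial oxidation, but the other oxidation genes did not rise as a group. Of 16 tested, 2 were higher and 0 lower at day 7, with 7 above 0 and a median of −0.14. At day 21, 1 was higher and 2 were lower, with 4 above 0 and a median of −0.26. *Eci1*, an enoyl-CoA isomerase, was at 82.7, 92.6 and 52.4 CPM in day 7 β1fl/fl and 219, 224 and 179.8 CPM in β1AT2-KO mice (1.34 ± 0.19), and at 65.9, 66.7 and 83.5 CPM against 239, 239.8 and 216 CPM at day 21 (1.52 ± 0.16). In the few AT2 cells of PBS mice 1, 2 and 3, *Eci1* was at 77.7, 299 and 222 CPM. *Abca3* was also lowest in PBS mouse 1, at 155, 1285 and 1346 CPM. Whether the differences of *Eci1* and *Abca3* have a common cause was not tested. *Etfb*, an electron transfer subunit, rose at day 7 (1.28 ± 0.17) and fell at day 21 (−0.61 ± 0.15), a difference between days of −1.89 ± 0.22 (adjusted p = 1.30e-05). It also rose in endothelial cells at day 7 (1.05 ± 0.09), while *Eci1* differed between the cell types on both days (1.21 ± 0.25 and 1.23 ± 0.26).

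Of the lower genes, *Pmvk*, a kinase of the mevalonate path, fell on both days (−1.75 ± 0.24 and −1.08 ± 0.21), and *Mvk* (−0.93 ± 0.24) and *Acat2* (−0.71 ± 0.16) of the same path fell at day 21. *Abhd5*, an activator of triglyceride lipase, fell at day 7 (−1.41 ± 0.22), as did *Chka* (−0.89 ± 0.19), a choline kinase, *Apoe* (−0.78 ± 0.19) and *Etnk1* (−0.70 ± 0.19). In endothelial cells after LPS, 96 were tested and 8 were higher (14.3% of all genes were), among them *Fads2* (2.85 ± 0.40), *Vldlr* (3.30 ± 0.67) and *Stard4* (1.16 ± 0.15), and 16 were lower (11.9% of all genes were), among them the lipases *Pnpla2* (−0.86 ± 0.10) and *Lipe* (−1.14 ± 0.16) and *Gpihbp1* (−0.37 ± 0.09), which anchors lipoprotein lipase to the vessel wall.

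The sterol response element that SREBP proteins bind was looked for in the promoters because *Srebf1* and *Srebf2*, which encode them, are members. RefSeq promoters (GRCm38.p6) were at hand for 30 of the 41 genes, and the 250 bases before each start were searched on both strands. TCACNCCAC, where N is any base, was found in 3 of the 30 (10%), against 1.22% of 27025 genes. The match of *Acsl1* is on the strand opposite to the gene and is not shown. *Acsl1* averaged 8.75 CPM in AT2 cells and was too low there to test between genotypes. The matches of *Hmgcs1* and *Pcyt1a* are shown in capitals with 15 bases on either side. Both of these genes lie on the + strand, and both matches are on the strand of the gene.
Hmgcs1, chr13:119690199-119690237: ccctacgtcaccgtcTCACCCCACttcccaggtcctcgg
Pcyt1a, chr16:32430790-32430828: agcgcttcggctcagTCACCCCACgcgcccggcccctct
Neither *Hmgcs1* nor *Pcyt1a* was called between genotypes in AT2 cells. The log2 ratio of *Hmgcs1*, the synthase at the head of the mevalonate path, was 0.16 ± 0.21 at day 7, and that of *Pcyt1a*, the rate-limiting enzyme of phosphatidylcholine synthesis, was −0.75 ± 0.25 (adjusted p = 0.139). The CCAAT box was found in 18 of the 30 (60%, against 37.5% of genes) and CACGTG in 4 (13.3%, against 6.86%). No match says only that these letters are not in that window.

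The 11 genes called between genotypes in AT2 cells lie on 7 chromosomes in the GENCODE annotation of GRCm38. *Fabp5* (chr3:10012548-10016607, + strand) and *Fdps* (chr3:89093588-89101959, − strand) lie on chromosome 3, and *Scd1* (chr19:44394455-44407879, − strand) and *Scd2* (chr19:44293674-44306864, + strand) both lie on chromosome 19. *Acoxl* is at chr2:127838876-128123873 (+ strand), *Elovl1* at chr4:118428093-118432953 (+ strand) and *Lpl* at chr8:68880491-68907448 (+ strand). UMIs were counted over whole genes, so no exon or isoform is told apart.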

How the data were processed

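Single-cell RNA was measured in 5 libraries of sorted lung cells with 5′ droplet kits. The authors deposited raw UMI counts of genes and hashtag antibodies for every barcode, made with Cell Ranger 3.1 on mm10, per the labels and the study's methods. Their correction for free RNA, quality filter and doublet removal are not part of the deposited counts. Depth was 8360954 to 29128331 UMIs in passing cells per library and 161943 to 2705440 UMIs in AT2 cells per LPS-treated mouse.

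Cells were gated as described above. A hashtag was in use at 1% or more of a library's tag counts, cells were assigned to it at 10 UMIs or more and 4 times the background of that tag, and only cells with 1 hashtag entered values per mouse. This left 17 to 302 AT2 cells per LPS-treated mouse. Hashtags were numbered in their listed order, and which animal each marks is not given in the sources used here, so numbers pair nothing across groups.

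Counts were summed per mouse with at least 10 cells and tested in R 4.3.3 with edgeR 4.0.16 (TMM, filterByExpr, glmQLFit, glmQLFTest), all groups sharing 1 estimate of the spread. SE is the log2 ratio divided by the square root of F. Comparisons of cell types took the mouse as a block. A gene was called at an adjusted p under 0.05 over all genes tested. Alternatives were DESeq2 1.42.0 as test or size factors, no filter, only the 2 groups compared, stricter gates and hashtag calls, doublets left out by Scrublet in scanpy 1.11.5 (at the doublet rate expected of the kit, since its own threshold marked at most 1.81% of a library), surfactant genes left out and each mouse left out. In data simulated for the day 7 AT2 comparison over 6375 genes, the test recovered 45 of 100 genes given a log2 change of 1 and 86 of 100 given one of 2, with 4 false calls. For the day 7 difference between cell types these were 4 and 49 of 100. Every simulated gene had the same dispersion, estimated from the data for AT2 cells and set at 0.05 for the difference between cell types. The simulated counts held no mouse or library effect other than depth, so recovery and false calls in the real data may differ.

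The members, the other lipid genes and the tests were chosen with earlier results of these data known, among them lower *Fabp5* and *Acoxl* at day 7. Named genes were those called between genotypes in AT2 cells, the 5 highest in either cell type and at most 3 called genes per role of the other lipid genes, and some items that the rule covers are not reported here. *Fasn*, *Insig1*, *Lss*, *Abca3* and the endothelial genes called after LPS were named after their values were seen. Shared sequence was counted as the share of 50-base windows of a gene's GENCODE transcripts found in another gene. Sets of genes were described by counts and medians, with no set test. Protein sequences were not used here.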

Additional observations from a re-analysis of the deposited data

Results flagged for a closer look

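The genotype difference (β1AT2-KO over β1fl/fl after LPS) differed between AT2 and endothelial cells of the same mice, by edgeR's test of the difference itself, for the genes below. At day 7 the log2 ratio in AT2 cells was below that in endothelial cells by −1.52 ± 0.21 for *Fabp5* (SE; adjusted p = 5.17e-10), −1.29 ± 0.24 for *Scd1* (4.11e-05), −1.15 ± 0.25 for *Fasn* (0.000719), −0.80 ± 0.21 for *Elovl1* (0.0155), −1.16 ± 0.31 for *Acaca* (0.0164), −0.84 ± 0.23 for *Fdps* (0.0269) and −1.08 ± 0.30 for *Insig1* (0.0333). At day 21 it was below by −2.55 ± 0.27 for *Fabp5* (5.50e-14), −1.79 ± 0.23 for *Scd1* (4.81e-10), −1.30 ± 0.27 for *Fdps* (0.000558) and −1.73 ± 0.47 for *Fasn* (0.0182). In endothelial cells the genotype ratio of *Sftpc*, which marks carried AT2 RNA, was 0.68 ± 0.34 at day 7 and 2.28 ± 0.35 at day 21, and its part in these differences was not tested. *Sftpc* itself differed between the cell types by −2.64 ± 0.20 at day 21.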

How the results depend on the processing

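No paired analysis was possible between groups because each group is 1 library and hashtag numbers carry no link between groups. Of 122 alternative counts of called genes, 107 stayed within 1.5 times the count reported. At day 7 in AT2 cells the count of 7 became 11 with DESeq2 and 4 with the stricter hashtag call, and 3 to 7 when a mouse was left out. At day 21 the count of 6 became 1 with the stricter hashtag call, under which β1fl/fl mouse 1 kept no AT2 cell, and was 4 whenever a mouse was left out. The difference between days rose from 0 to 1 with no filter. In endothelial cells the genotype counts of 0 became 1 with no filter at day 7, and 1 with no filter or the stricter hashtag call at day 21 (0 to 1 with a mouse left out, 1 without β1fl/fl mouse 1). The difference between cell types at day 7 went from 7 to 1 with DESeq2, 4 with the stricter hashtag call and 1 to 6 with a mouse left out, and at day 21 from 4 to 2 with DESeq2 and 3 to 6 with a mouse left out. The count after LPS in endothelial cells ran from 11 to 17 and that of AT2 over endothelial cells from 30 to 39.

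Of 550 alternative values of single genes, 480 kept their direction and side of the threshold, 43 lost the call, 5 gained it and 22 reversed, the last all among ratios not called. At day 21 *Acaca* became 0.047 with no filter and 0.22 with the stricter hashtag call, and *Scd1* became 0.080 with the latter. In the difference between days, *Fdps* became 0.010 with doublets left out, and with the stricter hashtag call *Fdps*, *Fabp5* and *Srebf1* became 0.71, 0.20 and 0.29. With a mouse left out, the ranges that crossed 0 were −1.27 to 0.15 for *Lpl* at day 7, −0.30 to 0.058 for *Scd1* and −0.057 to 0.099 for *Acaca* at day 21, and −0.24 to 0.077 for *Fdps* and −0.35 to 0.19 for *Fabp5* in the difference between days. The cause was not tested. Depth limits AT2 cells of the PBS library most, where 26 cells held 256798 UMIs, and 9 of the 41 genes were too low to test in AT2 cells.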
